A study of Mus musculus with 5 samples.

Results

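The Btg1, Dcn and Lum domain is a stretch of 1.3 Mb on mouse chromosome 10, from 95900000 to 97200000 on the build mm9, in which the vehicle library held nearly as many peaks of estrogen receptor α (ERα) as the estradiol library. Its members were all ERα peaks of either library that overlapped these limits, which gave 59 of the 22424 peaks in both lists together. Of these, 29 were among the 5184 vehicle peaks and 30 among the 17240 estradiol peaks. The domain was chosen by its high number of vehicle peaks relative to estradiol peaks, so the peak numbers of the 2 libraries, their overlaps and their lengths are given as descriptions and were not tested.

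The samples came from uteri of wild-type (WT) C57BL/6J mice whose ovaries had been removed 10 to 14 days earlier. The vehicle animals received an injection of saline and the others one of estradiol at 250 ng each, and uteri were collected after 1 hour in both groups. ERα-bound chromatin was immunoprecipitated and sequenced (ChIP-seq) in 1 library per treatment, from whole uterus, so the cell type behind a peak is unknown. The RNA polymerase II and input libraries of the series were not analysed here. The lists give intervals without scores or read counts, the depth of each library is unknown, and a difference in depth or yield cannot be told apart from an effect of estradiol.

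ERα is a ligand-activated transcription factor that binds estrogen response elements or other DNA-bound factors, often at sites far from promoters. Estradiol binding changes the shape of the receptor and the coregulators it recruits, and part of the receptor is already on chromatin without added hormone. Btg1 encodes an antiproliferative protein of the BTG/TOB family, which binds the CCR4-NOT deadenylase complex. Dcn encodes decorin and Lum encodes lumican, small leucine-rich proteoglycans that bind collagen fibrils and are typical products of fibroblasts and stromal cells. In the RefSeq gene order (assembly GRCm38.p6, used for order only), Lum is followed by Kera and Epyc, which encode the related proteoglycans keratocan and epiphycan. Between Btg1 and Dcn the same table lists 10 genes, of which 5 are long noncoding RNAs, 3 are pseudogenes, 1 is the microRNA gene Mir3966 and 1, Gm46240, is annotated as protein coding.

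Of the 3 genes that name the domain, the RefSeq promoter table matched 1, Btg1. The sequence is shown because a different peak was called close to Btg1 in each library. It covers the 250 bases before the annotated start on the plus strand at chr10:96616751-96617000 of GRCm38.p6, another build than that of the peaks, and no peak was placed on it. Capitals mark CCAAT on the minus strand, read here as ATTGG, and TATAAA on the plus strand.
Btg1: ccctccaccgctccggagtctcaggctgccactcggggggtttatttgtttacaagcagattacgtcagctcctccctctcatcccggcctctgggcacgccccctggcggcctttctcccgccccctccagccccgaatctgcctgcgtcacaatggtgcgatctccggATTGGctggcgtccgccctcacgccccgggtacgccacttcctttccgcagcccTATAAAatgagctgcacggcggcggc
The TATAAA began 26 bases before the start. Searched on both strands, this window held neither the palindromic estrogen response element, 2 inverted copies of GGTCA with any 3 bases between them, nor GGTCA alone. Of 32851 promoter windows of the same length, 0.0639% held the full element, 35.2% GGTCA, 12.4% TATAAA and 33.8% CCAAT. Any full element also contains GGTCA. Both capitalised motifs were added to the search after the sequence was read. Each match is a description of these letters and not a bound site.

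The 59 peaks fell on 40 separate sites, of which 19 were called in both libraries, 10 in the vehicle library only and 11 in the estradiol library only. A site counted as shared when the peaks overlapped by at least 1 bp, and each of the 19 joined 1 vehicle peak with 1 estradiol peak. Thus 19 of 29 vehicle peaks were shared (65.5%, 95% exact binomial interval 45.7 to 82.1), beside 71.3% of all vehicle peaks. Among estradiol peaks 19 of 30 were shared (63.3%, 43.9 to 80.1), beside 21.2% of all estradiol peaks. Peaks seen only after estradiol, 78.8% of the whole estradiol list, made up 36.7% of the domain's estradiol peaks (19.9 to 56.1). Because each shared site takes 1 peak from each list, 29 vehicle and 30 estradiol peaks must have nearly equal shared parts. The high shared part of the estradiol peaks is thus tied to the peak numbers that chose the domain and is not a separate trait. The intervals reflect counting error alone and take neighbouring peaks as independent, which peaks in groups are not.

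Both libraries were dense in peaks here, the vehicle library more so. The domain held 22.3 vehicle peaks per Mb, 11.0 times the 2.03 per Mb over the whole span of the lists. Its 23.1 estradiol peaks per Mb were 3.41 times the 6.76 per Mb of the whole span. Vehicle peaks therefore made up 49.2% of the domain's peaks (35.9 to 62.5), against 23.1% of both lists together. The summed peak length was 7535 bp in the vehicle library and 9062 bp in the estradiol library.

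**Figure D1:**
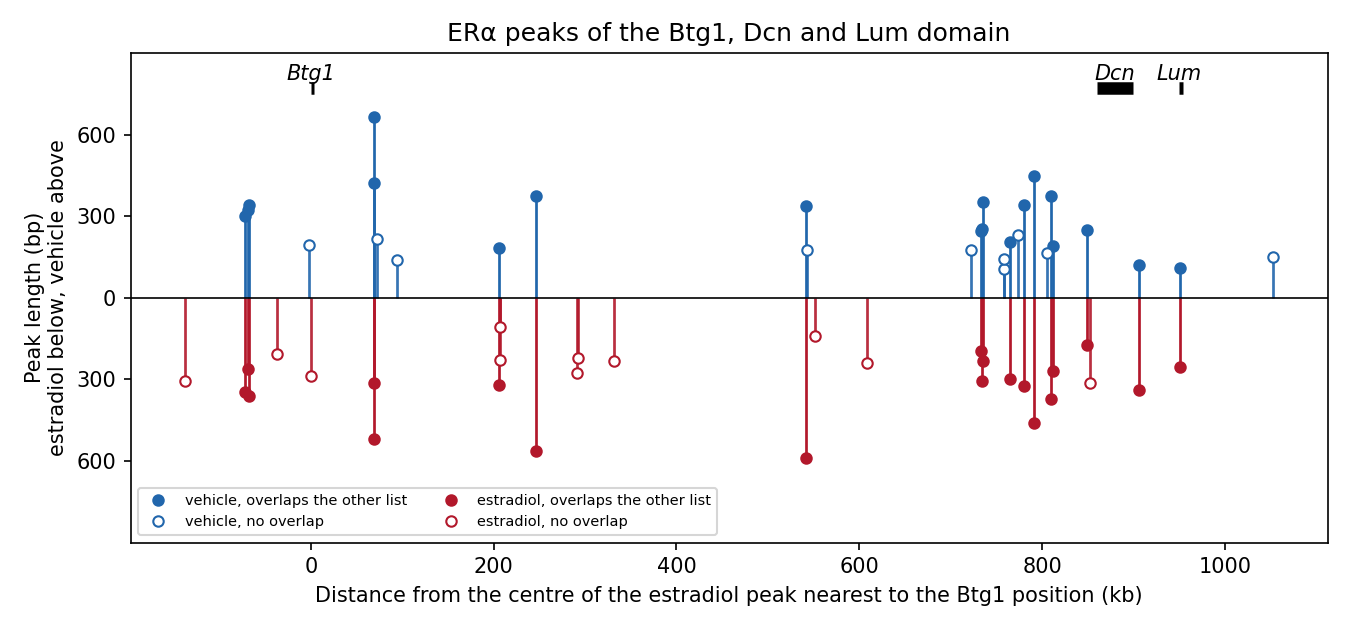
Each stem is 1 ERα peak, placed by the distance of its centre in kb from the centre of the estradiol peak nearest to the Btg1 position, with its length in bp as height (vehicle above the axis, estradiol below). Filled points overlap a peak of the other library and open points do not. Black bars give the approximate gene positions, and the densest stretch lies just before Dcn, with 14 vehicle and 10 estradiol peaks.

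On chromosome 10 the domain's vehicle peaks lay between long stretches without any. No vehicle peak lay in the 1221 kb before the domain's first vehicle peak or in the 1008 kb after its last. The stretch before held 11 estradiol peaks, and the stretch after held 0. Of these stretches, 108 kb and 66.9 kb lay inside the domain's limits. Vehicle peaks were sparse in general, at 2.03 per Mb over the whole span, and such stretches were not counted elsewhere. At the left limit, the last peak outside was an estradiol peak of 275 bp that ended 174 kb away, and the first inside was an estradiol peak of 307 bp from 95942496 to 95942802. At the right limit, the last peak inside was a vehicle peak of 150 bp from 97132970 to 97133119, and the next peaks outside began 941 kb away. The 1.3 Mb before the domain held 5 vehicle and 25 estradiol peaks, and the 1.3 Mb after it held 3 and 2.

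When the genome was divided into windows of the domain's length, 1619 windows held a peak, with medians of 2 vehicle and 8 estradiol peaks. The domain was chosen for its vehicle peaks, and the windows began at its own limits, so groups of peaks elsewhere may be cut. The ranks below therefore favour the domain and were not tested. Only 1 other window held at least 29 vehicle peaks, on chromosome 12 from 80300000 to 81600000, with 35 vehicle and 71 estradiol peaks. At least 30 estradiol peaks were found in 88 other windows. Among the 186 other windows with 30 or more peaks, vehicle peaks made up a median of 21.7% (range 3.33 to 56.5), and 2 windows reached the domain's share. In these windows a median of 20.9% of estradiol peaks were shared (2.56 to 65.0), and 1 window reached the domain's 63.3%. That window, on chromosome 14 from 23100000 to 24400000, held 26 vehicle and 20 estradiol peaks. Of vehicle peaks, a median of 77.8% were shared in the 186 windows (20.0 to 100), and 46 of these windows were at or below the 65.5% of the Btg1, Dcn and Lum domain, the chromosome 14 window among them at 46.2%.

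**Figure D2:**
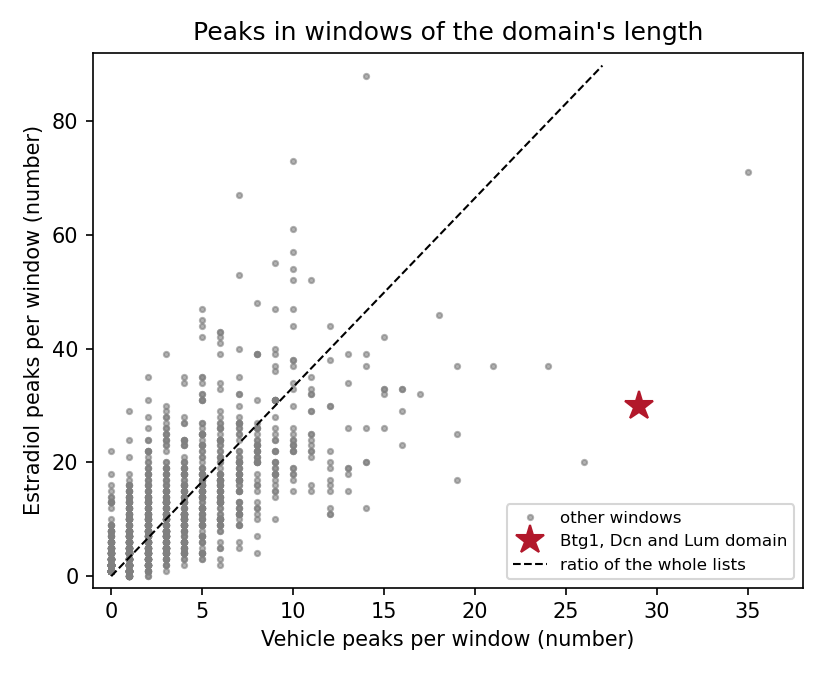
Each point is a window of 1.3 Mb, with its number of vehicle peaks on the x axis and of estradiol peaks on the y axis. The star is the Btg1, Dcn and Lum domain (29 and 30) and the dashed line is the ratio of the whole lists. The star lies far below the line, as does the window with 26 and 20 peaks.

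Along the domain, the peaks fell into 5 segments separated by at least 100 kb without a peak of either library. The segment around Btg1, from 95942496 to 96174905, held 8 peaks in each library. The next, from 96285594 to 96411701, held 2 vehicle and 7 estradiol peaks. A gap of 210 kb separated it from a small segment, 96621429 to 96688932, with 2 vehicle and 3 estradiol peaks. The segment from 96802636 to 97031493, which runs past Dcn to Lum, held 16 vehicle and 12 estradiol peaks. The last segment was the single vehicle peak from 97132970. Vehicle peaks thus outnumbered estradiol peaks in the segment of Dcn and Lum, equalled them around Btg1 and were fewer in the segments between. Of the peaks in the segment of Dcn and Lum, 14 vehicle and 10 estradiol peaks lay before Dcn, and 2 of each lay after the Dcn start. The shares have wide intervals: 57.1% (37.2 to 75.5) in the whole of that segment and 22.2% (2.81 to 60.0) in the second segment.

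**Figure D3:**
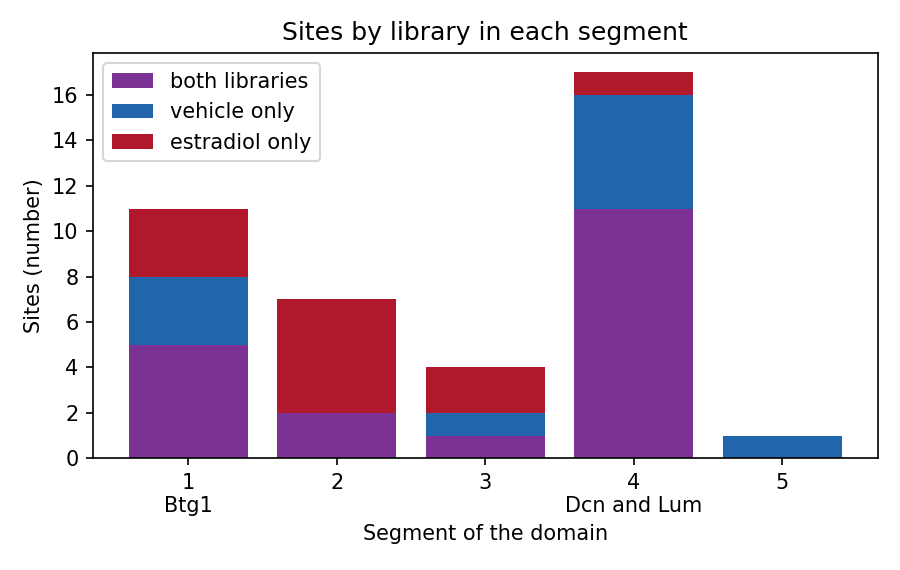
Bars count the sites of each segment, numbered along the chromosome, by the library that called them. Of the 11 estradiol-only sites, 5 lie in segment 2 and 1 in the segment of Dcn and Lum, which holds 11 of the 19 shared and 5 of the 10 vehicle-only sites.

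Gene positions on mm9 were known only to about 10 kb: Btg1 near 96.08 Mb, Dcn from about 96.94 to 96.98 Mb and Lum near 97.03 Mb. Whether a peak lies in a promoter, exon or intron was therefore not determined. At Btg1 each library had a peak of its own. The vehicle peak, 195 bp from 96078037 to 96078231, had no estradiol overlap. The estradiol peak, 288 bp from 96080172 to 96080459, had no vehicle overlap and began 1.94 kb further along. The other peaks within 100 kb of Btg1, 7 vehicle and 6 estradiol, lay on both sides of it in 2 tight groups and 2 single sites.

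The first group near Btg1 held 3 shared sites within 4.66 kb and nothing else. Their vehicle peaks measured 302, 323 and 341 bp and their estradiol peaks 345, 260 and 361 bp, in order along the chromosome. The second group, from 96148671 to 96153198, held the longest vehicle peak of the domain. This peak of 664 bp, from 96148671 to 96149334, wholly contained an estradiol peak of 521 bp. The neighbouring vehicle peak of 421 bp wholly contained an estradiol peak of 315 bp. Another vehicle peak of 217 bp, from 96152982 to 96153198, lay 3.04 kb from the nearest estradiol peak. In this group both shared sites were thus longer in the vehicle library.

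Dcn had no peak of either library within its approximate limits, inside a stretch of 53.4 kb that was free of peaks. The 130 kb just before that stretch held 14 vehicle and 10 estradiol peaks, of which 9 sites were shared. The vehicle library had 5 further peaks there and the estradiol library 1. The estradiol-only peak, 314 bp from 96932071 to 96932384, was the closest of all peaks on that side of Dcn. Next to it was a shared site with a vehicle peak of 251 bp from 96929469 and an estradiol peak of 172 bp. On the other side, the first site was shared and had the highest length ratio of the domain, with 121 bp in the vehicle library and 339 bp in the estradiol library (96985833 to 96986171).

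At Lum both libraries had a peak at the same site. The vehicle peak was 109 bp, from 97031286 to 97031394, and lay wholly inside an estradiol peak of 256 bp, from 97031238 to 97031493. This vehicle peak was the shortest of the 19 shared ones. Between the sites beside Dcn and at Lum neither library had a peak.

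The dense stretch before Dcn was made of small groups. A group of 3 shared sites within 1.85 kb, from 96813726 to 96815574, had vehicle peaks of 245, 252 and 353 bp and estradiol peaks of 195, 307 and 234 bp. The group from 96838593 to 96860921 held 5 vehicle peaks, of 107, 144, 206, 230 and 342 bp, and 2 estradiol peaks, of 297 and 323 bp. Its shared sites were those of 206 and 342 bp. A single shared site of 448 bp (vehicle, the second longest of that library in the domain) and 459 bp (estradiol) followed, from 96871749. The group from 96886138 to 96891971 held a vehicle-only peak of 163 bp and 2 shared sites. Their vehicle peaks measured 374 and 189 bp and their estradiol peaks 373 and 269 bp. Over the whole domain, 8 such groups were counted, each with 3 or more peaks and no gap of 10 kb or more.

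The shared peaks had nearly the same median length in both libraries, with wide variation from site to site. The median was 323 bp for the 19 shared vehicle peaks (109 to 664) and 321 bp for the 19 shared estradiol peaks (172 to 590). The median ratio of estradiol to vehicle length was 1.06 (exact interval of the median 0.796 to 1.499), beside 1.29 (1.27 to 1.31) over all 3584 sites where 1 peak of each list met. The estradiol peak was the longer one at 11 of the 19 sites (57.9%, 33.5 to 79.7), beside 74.8% of those 3584 sites. The ratio ran from 0.663 at the third site of the group from 96813726 to 2.80 beside Dcn. The centres of the paired peaks lay a median of 21.0 bp apart, and 96.5 bp at most. In 8 pairs the vehicle peak lay wholly inside the estradiol peak and in 4 pairs the reverse held.

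The 5 longest estradiol peaks were all shared. The longest (96621429 to 96622018) measured 590 bp, against 339 bp for the vehicle peak at that site. The next (96325907 to 96326468) measured 562 bp, against 375 bp. Both lie in the sparse middle of the domain, where the only other shared site, from 96285594, was also longer after estradiol (321 against 183 bp). The remaining 3 of the 5, of 521, 459 and 373 bp, met vehicle peaks of 664, 448 and 374 bp. The 5 longest vehicle peaks, of 664, 448, 421, 375 and 374 bp, were all shared as well. Shared peaks were also the longer ones over the whole lists. Their median was 306 bp against 227 bp for estradiol-only peaks, and 230 bp against 166 bp for vehicle-only peaks.

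**Figure D4:**
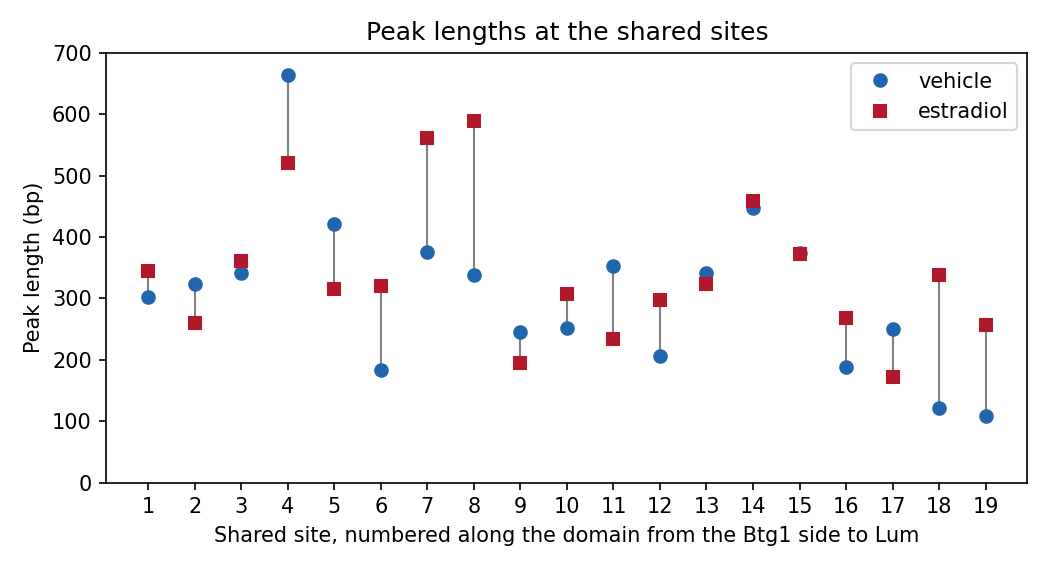
The 19 shared sites are numbered along the chromosome on the x axis, with the length of the vehicle peak (circle) and of the estradiol peak (square) in bp on the y axis. The estradiol peak is longer at 11 sites, by most bp at sites 8 and 18, and the vehicle peak is longer at 8, by most at site 4.

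The 10 vehicle-only peaks were short, with a median of 170 bp (107 to 230), beside 166 bp for all vehicle-only peaks. Those not yet described were 139 bp from 96174767, 176 bp from 96622963, 176 bp from 96802636 and the 150 bp peak at the right limit. An estradiol peak lay within 10 kb of 7 of the 10, beside 35.6% of all vehicle-only peaks. The closest was 0.944 kb from the longest estradiol peak, and the peak at the right limit was the farthest, at 101 kb. Estradiol peaks were 3.41 times as dense in the domain as over the whole span. Closeness to them cannot be told apart from this density and was not tested. The shortest vehicle-only peak, of 107 bp, ended at 96838699, and the one of 144 bp beside it began at 96838726. These close neighbours were counted as separate sites. No vehicle-only peak of the domain reached the median length of its shared vehicle peaks. Over the whole list vehicle-only peaks were also shorter than shared ones (median 166 against 230 bp), though they ran up to 898 bp.

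The 11 estradiol-only peaks had a median of 232 bp (108 to 314), beside 227 bp over the whole list. A vehicle peak lay within 10 kb of 5 of them, beside 18.4% of all estradiol-only peaks. Vehicle peaks were 11.0 times as dense in the domain as over the whole span, and this closeness cannot be told apart from that density. In the second segment, peaks of 228 and 108 bp lay 1.28 and 1.71 kb from a vehicle peak, and peaks of 277, 223 and 232 bp lay 45.2, 46.0 and 85.1 kb away. In the third segment, 139 bp from 96631297 and 240 bp from 96688693 lay 8.16 and 65.6 kb away. The 207 bp peak from 96042904, on the Btg1 side, lay 30.3 kb away, and the 307 bp peak at the left limit 65.2 kb away.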

How the data were processed

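The authors deposited 1 list of ERα peaks per library, with chromosome, start, end and a name. Per the file headers the build is mm9. Partek appears in the submitters' processing notes without a role. The peak caller, its thresholds and any use of input were not given in the sources used here, so the read depth and the precision it would give are unknown. The deposited starts were read as BED starts and printed with 1 added.

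Peaks, overlaps, lengths, groups and segments were computed with Python 3.11.15, numpy 2.4.6, pandas 2.3.3 and scipy 1.17.1, and whole-list overlaps were counted again with bedtools 2.31.1, with equal results. Counting was tested on simulated data. Shares carry exact binomial (Clopper-Pearson) 95% intervals, and the interval of a median is that of its order statistics. With 1 library per treatment no test was possible. Windows began at the domain's own limits and took a peak by its centre. The domain, its genes and the lists of items were chosen with earlier results of these data known. Named in full were the 5 longest peaks of each library, all vehicle-only peaks, the peaks nearest to each gene and the groups with most peaks. Segments and window thresholds were chosen after seeing the data. Gene positions are the rounded ones of the domain's definition. Peak sequences were not analysed here.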

Additional observations from a re-analysis of the deposited data

How the results depend on the processing

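With the estradiol list reduced to its longest peaks, as many as the vehicle list holds, 41.4% of the domain's vehicle peaks (12 of 29) and 85.7% of its estradiol peaks (12 of 14) were shared, and vehicle peaks made up 67.4% of its peaks. Over the whole lists this setting gives 38.1%, 37.2% and, by construction, 50%. A smaller estradiol list lowers the shared part of the vehicle peaks by construction. An overlap covering 50% of both peaks and gaps of up to 500 bp, run for the shared parts of both lists, left them within their intervals. With the 50% overlap, 58.6% of the domain's vehicle peaks were shared, beside 56.4% of the whole list, so the domain no longer lay below the whole list. For estradiol peaks the values were 56.7% and 17.0%. With the gaps allowed, the domain's shared parts stayed at 65.5% and 63.3%, beside 73.4% and 23.5%. Joined neighbours and moved limits were run for the vehicle share alone. Joining neighbours left it within its interval. Limits moved in by 100 kb gave 28 vehicle peaks among 57, or 49.1%. Limits moved out by 100 kb could change nothing, because the nearest peak outside lay 174 kb away. The longer part of each list left all 3 shares within their intervals. Leaving out the segment of Dcn and Lum, an alternative chosen after seeing the data, did so too. Without that segment, 44.4% of estradiol peaks were shared, down from 63.3% and close to the lower limit of 43.9, and the vehicle share was 41.9%. The intervals are wide and the settings reuse the same peaks, so staying within them does not show that a share is stable. The median length ratio was 1.02 with the stricter overlap and 1.10 without the segment. Groups numbered 7 with gaps under 5 kb and 6 with gaps under 25 kb. No paired analysis was possible because each treatment has 1 library, which also leaves no replicate to omit. Unknown read depth limits every comparison of peak numbers.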

Other observations

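Each deposited peak name ends in a number whose meaning is not stated in the sources used here. The lowest 5480 estradiol numbers (31.8% of that list) run in genome order, and 14 of the domain's 30 estradiol peaks (46.7%) carry such a number, among them the estradiol peaks at Btg1 and Lum and the one beside Dcn from 96985833. Of the 19 shared sites, 11 had an estradiol peak with such a number, and there the estradiol peak was the longer one at 9. At the other 8 shared sites it was the longer one at 2. Over all sites where 1 peak of each list met, the corresponding shares were 94.6% of 1845 and 53.8% of 1739. In the vehicle list, the shared peaks of the domain had a median number of 1312 and the vehicle-only peaks one of 3782, beside 1962 and 3985 in the whole list.

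Of the other 18 windows of the domain's length with 15 or more vehicle peaks, the number of estradiol peaks ran from 17 to 71, with a median of 33. Vehicle peaks outnumbered estradiol peaks in 2 of them, on chromosome 14 (26 and 20) and on chromosome 15 from 34800000 to 36100000 (19 and 17). In the latter, 47.4% of vehicle peaks and 52.9% of estradiol peaks were shared. These windows were picked for their vehicle peaks, and no expected number was computed.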
